A study of Mus musculus with 6 samples.

Results

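The genes described here are the inhibitors of cyclin-dependent kinases (CDKs) of the INK4 and CIP/KIP families together with the phosphatase gene *Cdkn3*, measured by RNA-seq in liver tumor cell lines of the mouse. They were chosen by symbol: *Cdkn2a*, *Cdkn2b*, *Cdkn2c* and *Cdkn2d* of the INK4 family, *Cdkn1a*, *Cdkn1b* and *Cdkn1c* of the CIP/KIP family, and *Cdkn3*. All 8 were present among the 20856 genes with values. The question was whether the other 6 differed between the genotypes in the way that *Cdkn2a* or *Cdkn1a* did.

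The 6 lines were grown from tumors of C57BL/6 mice whose livers received a *Myc* transposon and the plasmid px330, which carries Cas9 and a guide RNA, by hydrodynamic injection. In 3 lines the guide was directed at *Trp53*, the gene of p53 (*Myc*; sg*Trp53*, labelled sgp53), and in 3 at *Kmt2c*, the gene of the histone methyltransferase MLL3 (*Myc*; sg*Kmt2c*, labelled sgMll3). Cultures were untreated and had been passaged until no fibroblasts were seen. The authors describe the 3 lines of each genotype as independent and taken from different mice, and the genotypes are not isogenic. The names of 2 of the sg*Kmt2c* lines, replicates 2 and 3, begin with the same number. The labels alone do not settle whether these 2 share an origin. All lines carry the *Myc* transgene, and no line has both *Trp53* and *Kmt2c* intact, so an effect of the one disruption cannot be told apart from an effect of the other. The libraries held 5312182 to 6878625 reads on listed genes for sg*Trp53* and 3680068 to 4704539 for sg*Kmt2c*, so every sg*Kmt2c* library was the shallower.

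CDKs bound to cyclins drive the cell from G1 into S phase by phosphorylating RB, which releases E2F transcription factors. INK4 proteins bind the monomeric kinases CDK4 and CDK6 and keep cyclin D away from them, whereas CIP/KIP proteins bind assembled cyclin-CDK complexes, above all those of CDK2. In liver tumors driven by MYC these inhibitors are part of the brake on proliferation: *Cdkn2a* encodes the INK4 protein p16Ink4a and, from another first exon and reading frame, p19Arf, which stabilises p53, while *Cdkn1a* (p21) is a classical transcriptional target of p53.

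The sequences before the transcription starts of *Cdkn2a* and before the upstream start of *Cdkn1a* are shown because these genes parted the genotypes. That before *Cdkn2b* is shown because it is the neighbour of *Cdkn2a*. They are the 250 bases before a RefSeq start (GRCm38.p6), read 5′ to 3′ on the strand of the gene. Capitals mark a match to an E2F site in the first sequence, to a p53 site in the third and to a cell cycle homology region (CHR) in the fourth.
*Cdkn2a*, Arf start, chr4:89294620-89294869, minus strand: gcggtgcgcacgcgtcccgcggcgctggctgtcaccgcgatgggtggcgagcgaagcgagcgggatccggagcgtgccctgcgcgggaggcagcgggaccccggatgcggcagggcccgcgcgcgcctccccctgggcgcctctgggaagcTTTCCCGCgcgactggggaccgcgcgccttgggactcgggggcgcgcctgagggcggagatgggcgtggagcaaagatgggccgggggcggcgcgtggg
*Cdkn2a*, Ink4a start, chr4:89282193-89282442, minus strand: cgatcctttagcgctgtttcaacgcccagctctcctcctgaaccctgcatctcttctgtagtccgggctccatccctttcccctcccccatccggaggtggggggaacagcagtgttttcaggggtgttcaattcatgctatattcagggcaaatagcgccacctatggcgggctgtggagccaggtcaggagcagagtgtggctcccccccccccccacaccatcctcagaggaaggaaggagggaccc
*Cdkn1a*, upstream start, chr17:29090729-29090978, plus strand: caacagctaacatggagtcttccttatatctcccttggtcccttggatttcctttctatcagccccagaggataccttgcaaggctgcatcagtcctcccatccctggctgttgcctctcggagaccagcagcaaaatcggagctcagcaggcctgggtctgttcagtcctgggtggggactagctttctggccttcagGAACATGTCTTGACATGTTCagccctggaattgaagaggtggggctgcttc
*Cdkn2b*, chr4:89311033-89311282, minus strand: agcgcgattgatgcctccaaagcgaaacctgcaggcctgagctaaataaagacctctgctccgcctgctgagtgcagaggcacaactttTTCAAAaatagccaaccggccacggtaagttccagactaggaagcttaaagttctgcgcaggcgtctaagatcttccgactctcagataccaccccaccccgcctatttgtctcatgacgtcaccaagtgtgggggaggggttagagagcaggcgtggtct

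The window before the Arf start held 40 CpG dinucleotides, a number reached by 1.31% of the 32851 RefSeq windows of this length, for which the median was 6. It held the letters TTTCCCGC at 99 to 92 bases before the start. At least 1 of the E2F sites TTTCCCGC, TTTCGCGC, TTTGCCGC and TTTGGCGC, on either strand, was found in 1.86% of all windows. The GC box GGGCGG, not capitalised, lay at 48 to 43 and at 14 to 9 bases before the Arf start. It was found in 32.7% of all windows. The window before the Ink4a start, 12427 bases downstream, held 7 CpG and none of the motifs searched. The window before the upstream *Cdkn1a* start held 2 CpG and the p53 site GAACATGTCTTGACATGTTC at 51 to 32 bases before that start. The window before the downstream *Cdkn1a* start (chr17:29093519-29093768, not shown) held 19 CpG and no p53 site. It held the GC box at 104 to 99 and at 46 to 41 bases before that start. A p53 site with at most 1 mismatch was found in 25 windows (0.0761%). The *Cdkn2b* window held 12 CpG and the CHR letters TTCAAA, which read TTTGAA on the other strand and were found in 16.0% of windows. Windows were available for 7 of the 8 genes, and the p53 site and the E2F sites occurred in no other window of these genes. The motifs searched on both strands were these E2F sites, the p53 site, the CHR, the E-box CACGTG, the GC box GGGCGG, the CCAAT box CCAAT and the TATA box TATAAA, and no motif overlapped another in these 4 windows.

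Across the 8 genes, no overlap between the genotypes was seen for *Cdkn2a*, which was lower in sg*Kmt2c*, and for *Cdkn1a*, which was higher. These were 2 of 8 genes, beside 16.2% of the 11617 genes tested (5.72% higher, 10.4% lower). In the limma fit over those 11617 genes, 1 of the 7 inhibitor genes that passed the filter on low values had an adjusted p-value under 0.05, and this was *Cdkn2a*, beside 0.129% of all genes (0.0775% lower, 0.0516% higher). At an adjusted p-value under 0.1 there were 2, *Cdkn2a* and *Cdkn1a*, beside 0.284% of all genes (0.121% higher, 0.164% lower). At an unadjusted p under 0.05 there were the same 2, beside 8.58% of all genes (3.25% higher, 5.34% lower). The median log2 fold change of all genes was -0.09.

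**Figure D1:**
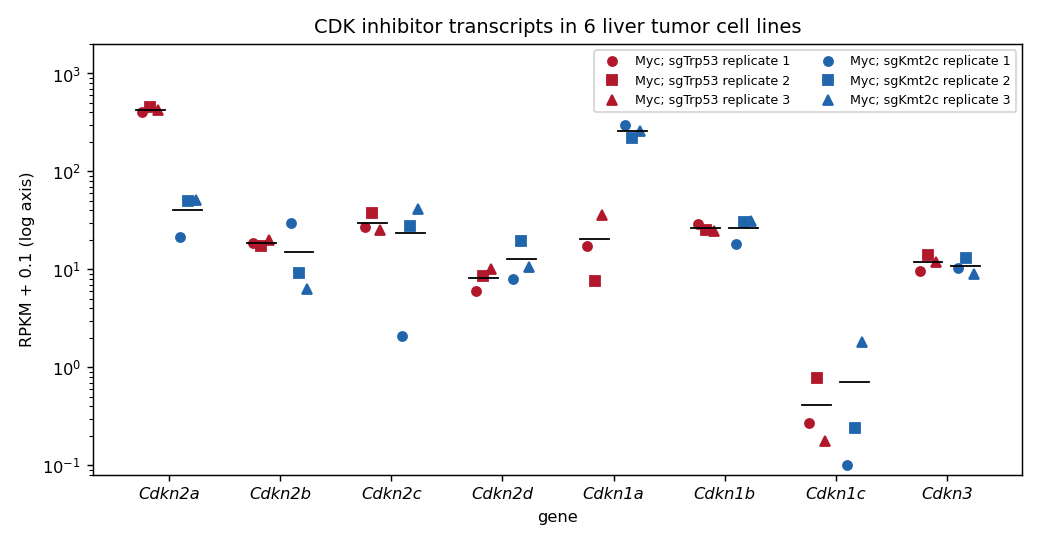
RPKM + 0.1 on a log axis for each of the 8 genes in the 6 lines, with 1 point per line, colored by genotype. The points of the genotypes lie apart for *Cdkn2a*, at 405 to 451 RPKM in sg*Trp53* and 21.2 to 51.3 in sg*Kmt2c*, and for *Cdkn1a*, at 7.54 to 36.1 and 217 to 295 RPKM. They overlap for the other 6 genes.

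*Cdkn2a* (chr4:89274471-89294653) is the gene of p16Ink4a and p19Arf. Its level was 405, 451 and 424 RPKM in sg*Trp53* replicates 1, 2 and 3 and 21.2, 49.3 and 51.3 RPKM in sg*Kmt2c* replicates 1, 2 and 3. All sg*Kmt2c* lines lay below all sg*Trp53* lines, and none was at 0: the lowest value rested on 85 reads. The means were 427 ± 23.1 and 40.6 ± 16.9 RPKM (SD, n = 3 each), a ratio of 10.5. The log2 fold change of RPKM + 1 was -3.46 (SE 0.349, 95% confidence interval -4.29 to -2.63, limma adjusted p = 0.0359). An exact permutation test of the 2 groups of 3 lines gave p = 0.1, the smallest it allows. The adjusted p-value rose above 0.05 when any single line other than sg*Kmt2c* replicate 1 was left out (highest value 0.202) and was 0.00730 without that replicate. The table has 1 value for the gene, so transcripts from the Arf and Ink4a starts could not be told apart.

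*Cdkn2b* (chr4:89306289-89311032), the gene of p15Ink4b, lies 11636 bases from *Cdkn2a*. The sg*Trp53* replicates had 18.6, 17.3 and 20.005 RPKM. The sg*Kmt2c* replicates had 29.4, 9.15 and 6.21 RPKM. The sg*Trp53* lines were close together, while the sg*Kmt2c* lines fell on both sides of them, with replicate 1 the highest and replicates 2 and 3 the lowest of all 6 lines. Counting error did not span this split: the 95% Poisson interval was 25.4 to 33.9 RPKM in replicate 1, 6.72 to 12.2 in replicate 2 and 4.37 to 8.56 in replicate 3. The means were 18.6 ± 1.37 and 14.9 ± 12.6 RPKM. The log2 fold change was -0.59 (95% confidence interval -1.83 to 0.66, limma adjusted p = 0.749). RefSeq places *Gm12610* over *Cdkn2b*, and whether reads were counted by strand is not given in the sources used here. *Cdkn2a* and *Cdkn2b* are similar in part of their coding sequence, and how reads that fit both were counted is likewise not given.

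*Cdkn2c* (chr4:109660876-109667189), the gene of p18Ink4c, is on the same chromosome but 20366223 bases away. The sg*Trp53* replicates had 26.7, 37.1 and 25.3 RPKM, the sg*Kmt2c* replicates 1.98, 27.6 and 41.5 RPKM. A single line, sg*Kmt2c* replicate 1, was low, with 23 reads (95% Poisson interval 1.25 to 2.96 RPKM), and the remaining sg*Kmt2c* lines lay inside or above the range of sg*Trp53*. The highest sg*Kmt2c* line exceeded the lowest 21.0-fold. The log2 fold change was -0.98 (95% confidence interval -3.25 to 1.29, limma adjusted p = 0.764), and without sg*Kmt2c* replicate 1 it was 0.20 (adjusted p = 0.850).

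*Cdkn2d* (chr9:21288463-21291209), the gene of p19Ink4d, was the lowest INK4 gene in sg*Trp53*, at 5.93, 8.43 and 9.93 RPKM. In sg*Kmt2c* it was 7.85, 19.4 and 10.5 RPKM. The sg*Kmt2c* values lay higher but overlapped those of sg*Trp53*, and the highest value, in the shallowest library, rested on 91 reads. The means were 8.10 ± 2.02 and 12.6 ± 6.07 RPKM, with a log2 fold change of 0.51 (95% confidence interval -0.37 to 1.39, limma adjusted p = 0.716).

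*Cdkn1a* (chr17:29090979-29100722), the gene of p21, measured 17.3, 7.54 and 36.1 RPKM in sg*Trp53* replicates 1, 2 and 3. The sg*Kmt2c* replicates measured 295, 217 and 261 RPKM. Every sg*Kmt2c* line lay above every sg*Trp53* line. The means were 20.3 ± 14.5 and 258 ± 39.2 RPKM, a ratio of 12.7, and the spread relative to the mean was wider in sg*Trp53*, where the lowest value rested on 30 reads. The log2 fold change was 3.84 (SE 0.508, 95% confidence interval 2.62 to 5.05), with an unadjusted p of 0.000170 and a limma adjusted p of 0.0680, which did not pass the threshold of 0.05. An exact permutation test gave p = 0.1, the smallest possible.

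*Cdkn1b* (chr6:134920401-134925513), the gene of p27Kip1, was the most even of the CIP/KIP genes. It measured 29.0, 25.1 and 24.6 RPKM in sg*Trp53* and 17.9, 30.6 and 30.9 RPKM in sg*Kmt2c*. The sg*Kmt2c* lines again fell on both sides, with replicate 1 the lowest and replicates 2 and 3 the highest of the 6 lines. The means were 26.2 ± 2.39 and 26.5 ± 7.40 RPKM, and the log2 fold change was -0.02 (95% confidence interval -0.64 to 0.60, limma adjusted p = 0.980). As folds, the interval ran from 0.640 to 1.51, so a difference of the size seen for *Cdkn2a* or *Cdkn1a* lay outside it.

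*Cdkn1c* (chr7:143458350-143461050), the imprinted gene of p57Kip2, was close to the detection limit and did not pass the filter for the limma fit. The sg*Trp53* replicates held 2, 7 and 1 reads of it, the sg*Kmt2c* replicates 0, 1 and 14. Only in sg*Kmt2c* replicate 3 did it exceed 1 RPKM, at 1.70 (95% Poisson interval 0.927 to 2.85). The genotypes overlapped (exact permutation p = 0.9), and a difference was not detectable at this depth.

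*Cdkn3* (chr14:46760541-46771525), which encodes a phosphatase that removes the activating phosphate from CDK2, belongs to neither family. It had 9.55, 13.9 and 11.8 RPKM in sg*Trp53* and 10.2, 12.98 and 8.78 RPKM in sg*Kmt2c*. The lines of both genotypes covered nearly the same range. The log2 fold change was -0.13 (95% confidence interval -0.73 to 0.46, limma adjusted p = 0.875), or 0.605 to 1.38 as folds.

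**Figure D2:**
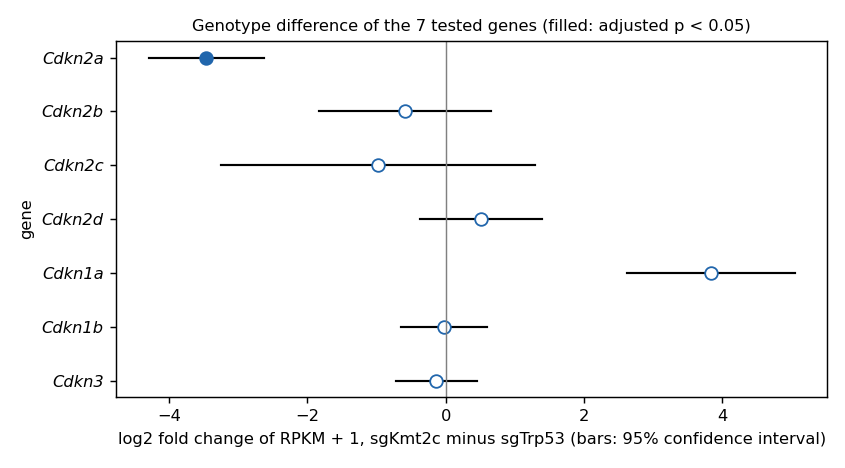
Log2 fold change of RPKM + 1, sg*Kmt2c* minus sg*Trp53*, with 95% confidence intervals from limma for the 7 genes tested, and a filled point where the adjusted p-value was under 0.05. The intervals of *Cdkn2a* (-4.29 to -2.63) and *Cdkn1a* (2.62 to 5.05) lie on opposite sides of 0, and the other 5 include 0.

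Whether the other inhibitors followed *Cdkn2a* was tested on the difference itself, the log2(RPKM + 1) of a gene minus that of *Cdkn2a* within each line. Relative to *Cdkn2a*, each of the 6 was higher in every sg*Kmt2c* line than in every sg*Trp53* line, by 2.48 (*Cdkn2c*) to 3.97 (*Cdkn2d*) on the log2 scale. Relative to *Cdkn1a*, each was lower in every sg*Kmt2c* line, with differences of -3.32 (*Cdkn2d*) to -4.82 (*Cdkn2c*). *Cdkn1c*, with 0 to 14 reads, is near 0 at a pseudocount of 1, so its values here (3.64 and -3.66) mostly restate the change of the reference gene, and at a pseudocount of 0.1 its comparison with *Cdkn1a* overlapped (exact permutation p = 0.2). At a pseudocount of 1, all 12 comparisons gave an exact permutation p = 0.1, which is the smallest value for 3 lines against 3 and stayed 0.1 after Benjamini-Hochberg adjustment. The comparisons share their reference gene and are not independent. Each change is a gene's own log2 fold change minus that of the reference (-3.46 for *Cdkn2a*, 3.84 for *Cdkn1a*). A gene without a change of its own can thus also part the genotypes here, as *Cdkn1b* (-0.02) did with 3.44 and -3.86. The share of all genes that would part in this way was not computed. For *Cdkn2c*, the interval of its own fold change reached -3.25 and so overlapped that of *Cdkn2a*; the intervals of *Cdkn2b*, *Cdkn2d*, *Cdkn1b* and *Cdkn3* did not, and the upper bounds of the 5 genes, at most 1.39, stayed under the lower bound of *Cdkn1a*.

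The lines also differed in which inhibitor led. On the RPKM scale, which is per length, *Cdkn2a* ranked first in sg*Trp53*, above *Cdkn2c*, *Cdkn1b*, *Cdkn1a* and *Cdkn2b*, whose neighbours in the order overlapped. *Cdkn3* and *Cdkn2d* followed, overlapping each other, and *Cdkn1c* was last. In sg*Kmt2c*, *Cdkn1a* ranked first, and the lines of *Cdkn2a*, *Cdkn1b*, *Cdkn2c*, *Cdkn2b*, *Cdkn2d* and *Cdkn3* overlapped from each gene to the next, with *Cdkn1c* last.

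*Cdkn2a* made up 79.0, 80.4 and 76.8% of the summed RPKM of the 8 genes in sg*Trp53*, against 5.52, 13.5 and 12.5% in sg*Kmt2c*. *Cdkn1a* made up 3.38, 1.34 and 6.54% in sg*Trp53* and 76.9, 59.3 and 63.3% in sg*Kmt2c*. The leading place thus passed from the INK4 gene to the CIP/KIP gene in every line. The sum itself was 512, 561 and 552 RPKM in sg*Trp53* and 384, 366 and 412 RPKM in sg*Kmt2c*, lower in each sg*Kmt2c* line (542 ± 26.0 against 387 ± 22.9, exact permutation p = 0.1). The other 6 genes together gave 94.7 ± 6.75 and 88.9 ± 18.7 RPKM, which overlapped (exact permutation p = 0.8). These shares depend on the 1 transcript length that the table uses per gene, 748 bases for *Cdkn1a*. With the longest protein-coding transcript of each gene in GENCODE vM1, 1910 bases for *Cdkn1a*, its share in sg*Kmt2c* was 57.2, 37.0 and 41.1%, still above that of *Cdkn2a* at 9.60, 19.7 and 18.9%. The sums at these lengths were 468, 519 and 495 RPKM in sg*Trp53* and 202, 230 and 249 RPKM in sg*Kmt2c*, a wider gap than with the lengths of the table.

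**Figure D3:**
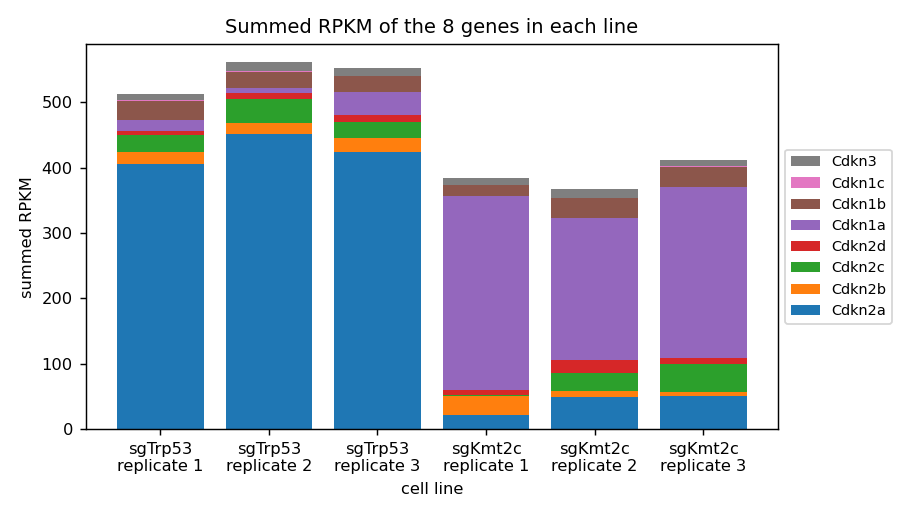
Summed RPKM of the 8 genes in each of the 6 lines as stacked bars from 0, divided into *Cdkn2a*, *Cdkn1a* and the other 6 genes. The *Cdkn2a* part fills 76.8 to 80.4% of the bar in sg*Trp53*, the *Cdkn1a* part fills 59.3 to 76.9% in sg*Kmt2c*, and the bars of sg*Kmt2c* are the shorter.

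Within sg*Kmt2c*, replicate 1 stood apart for several inhibitors. On the RPKM + 1 scale this line lay 9.60-fold below the nearer of the other sg*Kmt2c* lines for *Cdkn2c*, 2.27-fold below for *Cdkn2a* and 1.67-fold below for *Cdkn1b*, but 3.00-fold above for *Cdkn2b* and 1.13-fold above for *Cdkn1a*. For *Cdkn2d* it was replicate 2 that lay apart, 1.78-fold above, and for *Cdkn1c* replicate 3, 2.36-fold above on 14 reads. Replicate 1 also stood apart across the genome: 4.91% of the genes tested were at least 4-fold from the nearer line of the same genotype, against 0.706, 1.70 and 0.284% for the sg*Trp53* lines and 1.67 and 0.766% for sg*Kmt2c* replicates 2 and 3. Without it, 5 of the 8 genes did not overlap between the genotypes (*Cdkn1a*, *Cdkn2d* and *Cdkn1b* higher, *Cdkn2a* and *Cdkn2b* lower in sg*Kmt2c*), beside 26.8% of all genes tested. *Cdkn2b* then had a log2 fold change of -1.20 (limma adjusted p = 0.267).

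The genes on which the inhibitors act varied in the same line. Of the 10 G1 cyclins and kinases, 8 had their lowest value of all 6 lines in sg*Kmt2c* replicate 1, beside 35.9% of all genes tested. *Ccne2*, a cyclin of CDK2, was 6.09 RPKM there and 126 to 230 RPKM in the other 5 lines. Of 10 mitotic genes 8 were also lowest there, and of 6 genes of the RB family and E2F activators 4. All 8 hepatocyte markers and 6 of 7 epithelial and biliary markers had their highest value in the same line, beside 23.6% of all genes tested. Of 8 fibroblast markers 7 had their lowest value there, beside 35.9% of all genes tested. For *Dcn* and *Pdgfra* that value was 0 and was shared with another sg*Kmt2c* line. The part of these differences in the inhibitor values was not tested.

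**Figure D4:**
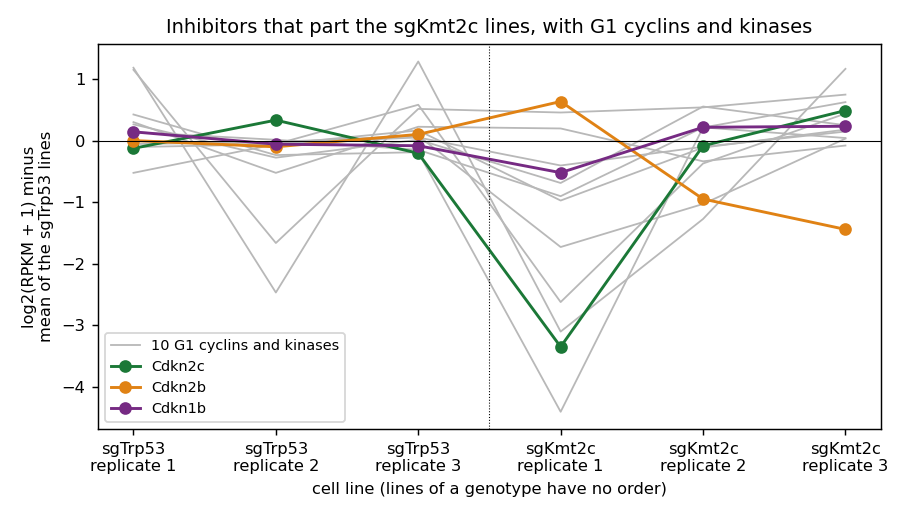
Log2(RPKM + 1) minus the mean of the sg*Trp53* lines for *Cdkn2c*, *Cdkn2b* and *Cdkn1b* (colored) and for the 10 G1 cyclins and kinases (grey) in the 6 lines, joined by lines to trace each gene, although replicates have no order. In sg*Kmt2c* replicate 1 *Cdkn2c* drops with most of the grey genes while *Cdkn2b* lies above its sg*Trp53* mean, and in replicates 2 and 3 *Cdkn2b* lies below it.

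Between the genotypes, none of the 10 G1 cyclins and kinases passed the test, and their median log2 fold change was -0.26, or 0.033 without sg*Kmt2c* replicate 1. The largest differences were those of *Ccne2* (-1.19, limma adjusted p = 0.780) and of the CDK4/6 partner *Ccnd2* (-1.07, adjusted p = 0.811). None of the 6 genes of the RB family and E2F activators passed (median -0.02, or 0.30 without that replicate). *Rb1*, the gene of RB itself, was 80.2, 86.4 and 76.6 RPKM in sg*Trp53* and 203, 77.9 and 155 RPKM in sg*Kmt2c* (log2 fold change 0.73, adjusted p = 0.616), and *E2f2* differed by 0.47 (adjusted p = 0.698). None of 8 genes of CDK activation and inhibitory phosphorylation passed (median -0.20, or -0.028 without that replicate), with *Cdc25c*, a phosphatase that activates CDK1, at -0.42 (adjusted p = 0.703) and *Cdk7*, the kinase of the CDK-activating complex, at -0.22.

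Ubiquitin ligases remove inhibitor proteins and cyclins, and 8 genes of this turnover were measured. None passed the test, the median log2 fold change was -0.45 (-0.22 without sg*Kmt2c* replicate 1), and 3 did not overlap between the genotypes, all lower in sg*Kmt2c*, beside 10.4% of all genes. *Skp2*, the subunit of the ligase that recognises p27Kip1, was 29.9, 24.1 and 26.0 RPKM in sg*Trp53* and 7.01, 11.5 and 21.2 RPKM in sg*Kmt2c* (log2 fold change -1.08, limma adjusted p = 0.528). Its cofactor *Cks1b* (-0.86, adjusted p = 0.422) and *Fbxw7*, a ligase subunit for cyclin E (-0.62, adjusted p = 0.567), were the others, named after their values were seen. *Dtl*, of the ligase that removes p21 in S phase, was low only in sg*Kmt2c* replicate 1, at 2.71 RPKM against 19.6 to 23.9 RPKM in the other 5 lines (log2 fold change -0.92, adjusted p = 0.719).

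Of 12 transcription factors and repressors known to act on inhibitor genes, 11 were tested and 1 passed. This was *Trp53*, the gene targeted in sg*Trp53*, with 17.2, 17.6 and 19.4 RPKM in sg*Trp53* and 92.2, 124 and 121 RPKM in sg*Kmt2c* (log2 fold change 2.56, limma adjusted p = 0.0140). *Kmt2c* itself overlapped between the genotypes, at 18.4 to 24.2 RPKM in sg*Trp53* and 9.51 to 24.97 RPKM in sg*Kmt2c* (log2 fold change -0.27, adjusted p = 0.819), and a small edit need not alter the read count of its gene. The median of the 11 genes was 0.25. *Id1*, an inhibitor of E proteins (1.68, limma adjusted p = 0.277), and *Bmi1*, the Polycomb repressor of the *Cdkn2a* locus (0.66, adjusted p = 0.528), did not overlap and were higher in sg*Kmt2c*. *Smad3* did not overlap and was lower. With *Trp53*, 3 of the 11 genes were higher without overlap, beside 5.72% of all genes tested, and 1 was lower, beside 10.4%. *Id1*, *Bmi1* and *Smad3* were named after their values were seen.

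Growth arrest genes of the p53 program were read beside *Cdkn1a*. Of 9 such genes other than *Cdkn1a*, 1 passed, *Ccng1* (cyclin G1), at 16.5, 19.4 and 17.4 RPKM in sg*Trp53* and 139, 134 and 191 RPKM in sg*Kmt2c* (log2 fold change 3.03, limma adjusted p = 0.00963). A further 3, named after their values were seen, did not overlap and were higher in sg*Kmt2c*, beside 5.72% of all genes: *Zmat3* (1.90, adjusted p = 0.0662), *Btg2* (1.53, adjusted p = 0.0503) and *Sesn2* (1.34, adjusted p = 0.294). The median of the 9 genes was 0.93. It was 0.14 without sg*Kmt2c* replicate 1. None of the 10 mitotic genes passed (median -0.53, or -0.16 without that replicate). Of the 10, 1 was lower in sg*Kmt2c* without overlap, beside 10.4% of all genes tested. This was *Ccnb2*, a cyclin of CDK1, at 82.0, 96.7 and 72.8 RPKM in sg*Trp53* and 46.0, 50.3 and 45.1 RPKM in sg*Kmt2c* (-0.81, limma adjusted p = 0.328). *Bub1*, of the spindle checkpoint, differed by -0.73 (adjusted p = 0.597).

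Likeness over the 6 lines was measured as the root mean square difference of log2(RPKM + 1) after centring each gene on its mean, so that 0 is an identical profile. *Cdkn2a* and *Cdkn1a* were 3.74 apart. The other 6 inhibitors lay 1.48 to 2.02 from *Cdkn2a* and 1.83 to 2.84 from *Cdkn1a*, and each of them lay nearer to a flat profile, at 0.218 (*Cdkn3*) to 1.30 (*Cdkn2c*). The genes nearest to *Cdkn2a* were *Mxra7* (0.402), *Fhod3*, a formin (0.437), and *Nox4*, an NADPH oxidase (0.484), all at 1.69 RPKM or less in sg*Kmt2c*. *Nox4* had 14.4, 6.98 and 12.99 RPKM in sg*Trp53* and was listed at 0, 0 and 0.395 RPKM in sg*Kmt2c*. The genes nearest to *Cdkn1a* were *Anxa8*, an annexin (0.601), *9030617O03Rik* (0.619) and *Eda2r*, a receptor of the tumor necrosis factor family (0.652). *Anxa8* had 32.8, 31.8 and 46.7 RPKM in sg*Trp53* and 453, 396 and 262 RPKM in sg*Kmt2c*. With 3 lines on each side, such nearness follows in large part from the size of the genotype difference.

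The tissue label was checked against markers. *Alb*, the defining hepatocyte gene, was only 0.644 to 4.36 RPKM in the 6 lines, and the 8 hepatocyte markers summed to 27.2 to 78.6 RPKM in sg*Trp53* and 4.46 to 5701 RPKM in sg*Kmt2c*. The highest sum, in sg*Kmt2c* replicate 1, was mostly *Apob* (4385 RPKM) and *Hnf4a* (1186 RPKM). Marker sums too depend on the 1 transcript length used per gene, 1118 bases for *Apob* and 431 for *Hnf4a*. The 7 epithelial and biliary markers summed to 68.5 to 1022 and 245 to 6808 RPKM. Among these *Epcam* was under 1 RPKM in sg*Trp53* replicates 1 and 2 and sg*Kmt2c* replicate 2. *Cdh1* and *Krt7* were under 1 RPKM in sg*Trp53* replicate 2 and sg*Kmt2c* replicate 2. In the same lines *Krt8*, *Krt18*, *Krt19* and *Sox9* were at 5.05 RPKM or more, with *Krt8* at 431, 9.27 and 140 RPKM. The 8 fibroblast markers summed to 18.5 to 996 RPKM in sg*Trp53* and 0.282 to 156 RPKM in sg*Kmt2c*. These fibroblast sums overlapped between the genotypes. *Dcn* alone among the 8 did not, at 0.897 to 8.16 RPKM in sg*Trp53* and 0 to 0.248 RPKM in sg*Kmt2c*. *Col3a1* reached 814 RPKM in sg*Trp53* replicate 2. The 4 endothelial markers were under 1 RPKM in all lines. The 6 immune markers summed to 20.03 to 49.8 RPKM in sg*Trp53* and 5.35 to 14.2 RPKM in sg*Kmt2c*, which did not overlap. Of the 2 that were tested, *Lyz2* did not overlap, at 17.1 to 45.3 RPKM in sg*Trp53* and 0 to 12.4 RPKM in sg*Kmt2c*, and *Cd68* did. Genes lower in sg*Kmt2c* without overlap made up 10.4% of all genes tested. Fewer cells of a kind and less RNA per cell cannot be told apart in such bulk libraries, and the part of these markers in the *Cdkn2a* and *Cdkn1a* differences was not tested.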

How the data were processed

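RNA-seq of 6 liver tumor cell lines, 3 *Myc*; sg*Trp53* and 3 *Myc*; sg*Kmt2c*, was analysed, with groups and replicate numbers taken from the sample labels. The authors trimmed reads with Trimmomatic, aligned them to GRCm38 (mm10) with STAR and used HTSeq to count them. The deposited values are RPKM, computed by the authors with 1 transcript length per gene. Versions of these tools are not given in the sources used here. The table has 21065 genes, of which 209 carry no values. Another 6 sample columns were not used. The authors' second deposited table holds fold changes and p-values of their own DESeq2 1.8.2 comparison and was not used.

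RPKM times length gave whole reads (within 0.01 of a read) for 100% of values above 0, which supplied depth, exact Poisson intervals at the 95% level and a count fit. Such intervals cover counting error only. A single read at 2 kb was worth 0.0726 to 0.136 RPKM. Genotypes were compared with limma 3.58.1 under R 4.3.3 (lmFit, eBayes with trend), with genotype alone in the model of log2(RPKM + 1). It was fitted to the 11617 genes that reached 1 RPKM in 3 or more of 6 libraries, and p-values were adjusted over all of them after Benjamini and Hochberg. A pseudocount of 1 understates the change of low genes. Single values were compared by exact two-sided permutation tests (scipy 1.17.1), for which 3 against 3 lines cannot go below p = 0.1. The fit was tested on simulated data.

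The inhibitor genes and the other lists were chosen with earlier results of these data known. Of each other list, the text names the genes past an adjusted p-value of 0.05 or, where none is, the 2 with the largest absolute log2 fold change, and of all genes the 3 nearest to *Cdkn2a* and to *Cdkn1a*. Alternatives were other pseudocounts, no filter, TPM and median-of-ratios scaling, no trend, a replicate block, each line left out, sg*Kmt2c* replicates 2 and 3 as 1 sample, limma voom on the reads and an adjusted p-value of 0.1. The overlap of genotypes with each line left out and the GENCODE vM1 lengths were added after seeing the data. Promoter windows and overlapping genes came from RefSeq (GRCm38.p6).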

Additional observations from a re-analysis of the deposited data

How the results depend on the processing

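The main test called 15 genes. It called 6 with a pseudocount of 0.1, 5 with no filter on low values, 4 with limma voom on the reads and 33 at an adjusted p-value under 0.1. With sg*Kmt2c* replicates 2 and 3 as 1 sample limma called 0 (1053 at an unadjusted p under 0.05), and with 1 line left out 0 to 8 (563 to 1477 unadjusted), the 8 without sg*Kmt2c* replicate 1 and 0 without any other. Of the inhibitors, 1 was called, *Cdkn2a*, and 0 with a pseudocount of 0.1 (adjusted p = 0.0577), with no filter (0.0913), with voom (0.0741) and with replicates 2 and 3 as 1 sample (0.124), although *Cdkn2a* and *Cdkn1a* had an unadjusted p under 0.05 in each. With 1 line left out the number was 0 to 1, and at an adjusted p-value under 0.1 it was 2, *Cdkn1a* being the other. *Cdkn2a* kept its direction in all of these fits (log2 fold change -3.68 to -3.06, adjusted p = 0.00730 to 0.202), as did *Cdkn1a* (3.30 to 4.36, adjusted p = 0.0632 to 0.252). The cause of the lost calls was not tested.

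With the replicate number as a block, limma called 0 genes (1085 unadjusted) and 0 inhibitors (*Cdkn2a* adjusted p = 0.0771). Same-numbered lines had correlations of 0.192, 0.399 and 0.0316 between their deviations. Replicates 1 and 2 correlated best with their own number. Replicate 3 of each genotype correlated better with replicate 1 of the other (0.152 for sg*Trp53* replicate 3, 0.0519 for sg*Kmt2c* replicate 3). Whether same-numbered lines share a batch or preparation cannot be settled from these values.

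*Cdkn2c* turned to 0.20 without sg*Kmt2c* replicate 1 (range with 1 line left out -1.72 to 0.20). *Cdkn1b*, near 0 throughout, turned to 0.052 with median-of-ratios scaling, and with 1 line left out it ran from -0.15 to 0.22, above 0 without sg*Trp53* replicate 1 (0.047) and sg*Kmt2c* replicate 1 (0.22). *Cdkn2b* ran from -1.20 to -0.16, *Cdkn2d* from 0.17 to 0.78 and *Cdkn3* from -0.27 to -0.01. The number of inhibitors whose genotypes did not overlap was 5 without sg*Kmt2c* replicate 1, beside 26.8% of all genes tested. It was 2 with any other single line left out, for which the share of all genes was not computed. For the 12 comparisons relative to *Cdkn2a* and *Cdkn1a*, 9 alternatives were run. Leaving out or averaging lines cannot make groups overlap that already lie apart, so only the other pseudocounts could change the outcome. All 12 stayed without overlap at a pseudocount of 0.5. At 0.1, 11 did, and *Cdkn1c* against *Cdkn1a* overlapped. Depth limited *Cdkn1c*, which had at most 14 reads.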
